A study of Mus musculus with 48 samples.

Results

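The genes described here are 6 immune receptor and signalling genes: Crtam, Ptpn22, Il20rb, Cd180, Tnfrsf1b and Pou2af1. They are the rows that carry these gene names in any of the 4 deposited gene tables, 6 of the 6143 genes listed there. A gene enters one of these tables only when the authors' adjusted p-value is under 0.05, so the genes were chosen by the library levels that follow, which are given as descriptions, without a test.

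Crtam is an adhesion receptor best known from activated T and NK cells, where it binds the nectin-like protein Cadm1. Il20rb is the shared chain of receptors for cytokines of the IL-10 family and works through JAK and STAT proteins, and Cd180 is a relative of Toll-like receptor 4 that sits with the protein Ly86 on B cells, macrophages and dendritic cells. Tnfrsf1b is the second receptor for tumour necrosis factor and signals to NF-kB. Inside the cell, Ptpn22 is a tyrosine phosphatase that binds the kinase Csk and dampens antigen receptor signalling, and Pou2af1 is a coactivator that joins the octamer factors Pou2f1 and Pou2f2 on DNA in B cells. In brain, Cd180 and Tnfrsf1b are known from microglia.

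The mouse cerebellum was studied for the chromatin remodeller Chd4 and for motor training, with 48 samples in all. The mRNA samples were Chd4 conditional knockout (cKO) and wild type (WT) cerebella, and WT cerebella of mice trained on the rotarod, a rotating rod on which mice learn to balance, and of resting home-cage mice, at postnatal days 27 to 28 with 4 libraries in each group. The Sync-TRAP samples were ribosome-bound RNA pulled down (IP) from Chd4 cKO and WT cerebella at postnatal day 12, 6 days after electroporation, and the WT input before pull-down, with 3 libraries in each group. The 20 chromatin samples and the input of the Sync-TRAP cKO samples were not used here. The deposited columns call the pull-down libraries of the cKO and WT samples cre and ctrl. The labels do not name the promoter that drives Cre, and the sources do not say whether libraries came from single or pooled animals. Chd4 itself averaged 7.94 ± 0.08 log2 CPM in cKO and 8.38 ± 0.06 log2 CPM in WT mRNA (SD, n = 4 each), a difference of -0.44 ± 0.06 (SE).

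Levels are log2 CPM, that is, read counts scaled to a common library size (CPM), with a small prior count added, as deposited. In them 1 unit is a doubling, and they are not divided by transcript length, so levels are compared between groups and not between genes. Effective library sizes recovered from the low values were between 13.7 and 15.6 M reads in cKO and WT mRNA, between 13.7 and 16.7 M in the training comparison, and between 23.0 and 27.1 M in the pull-downs. The sequencing depth of the input was not recoverable. A gene that a table does not list has no value there, so it cannot be said whether it was low or merely not different.

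The promoters of 5 members could be matched and are shown so that their motifs can be set beside each other. The sequences are the 250 bases before the transcription start, credited to RefSeq on build GRCm38.p6, and capitals mark every match to the motifs searched on both strands. The motifs were the octamer ATGCAAAT bound by the factors that Pou2af1 joins, its core ATGCAAA, which every octamer contains, the cyclic AMP element core TGACGT, the AP-1 site TGANTCA, the GC box GGGCGG, the TATA box TATAAA, the E-box CAGCTG and the NF-kB-like run GGGNNTNCC. Crtam is the member without a promoter here. Ptpn22 and Cd180 have a second start in the table, and the first is printed.
Ptpn22, chr3:103859545-103859794, plus strand: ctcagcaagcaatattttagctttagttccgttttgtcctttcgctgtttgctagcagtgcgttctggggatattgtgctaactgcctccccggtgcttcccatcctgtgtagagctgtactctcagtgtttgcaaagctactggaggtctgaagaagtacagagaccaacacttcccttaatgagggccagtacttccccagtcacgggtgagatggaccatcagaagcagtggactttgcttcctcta
Il20rb, chr9:100486474-100486723, minus strand: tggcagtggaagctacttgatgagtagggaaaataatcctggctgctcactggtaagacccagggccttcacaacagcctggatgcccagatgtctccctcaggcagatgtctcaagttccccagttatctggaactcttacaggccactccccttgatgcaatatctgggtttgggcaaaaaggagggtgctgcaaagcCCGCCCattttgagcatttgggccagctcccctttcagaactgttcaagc
Cd180, chr13:102693297-102693546, plus strand: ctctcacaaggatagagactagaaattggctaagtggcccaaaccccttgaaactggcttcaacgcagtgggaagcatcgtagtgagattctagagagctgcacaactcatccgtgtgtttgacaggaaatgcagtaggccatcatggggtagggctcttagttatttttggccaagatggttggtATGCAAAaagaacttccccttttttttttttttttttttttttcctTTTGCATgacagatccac
Tnfrsf1b, chr4:145246871-145247120, minus strand: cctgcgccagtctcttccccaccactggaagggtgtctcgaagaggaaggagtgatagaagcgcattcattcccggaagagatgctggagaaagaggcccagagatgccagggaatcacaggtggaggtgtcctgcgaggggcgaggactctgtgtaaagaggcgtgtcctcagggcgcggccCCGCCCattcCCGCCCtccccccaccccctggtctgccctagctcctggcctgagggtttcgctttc
Pou2af1, chr9:51213440-51213689, plus strand: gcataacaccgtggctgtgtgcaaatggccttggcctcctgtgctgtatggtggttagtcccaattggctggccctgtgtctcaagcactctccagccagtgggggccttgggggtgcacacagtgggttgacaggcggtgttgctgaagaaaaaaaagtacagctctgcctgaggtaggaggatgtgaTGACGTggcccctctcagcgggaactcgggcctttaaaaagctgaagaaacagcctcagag

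Cd180 held the octamer core 2 times, once on each strand, and no full octamer. Of 32851 promoters of this length 4.13% held the core at least once and 1.60% the full octamer. Pou2af1 held 1 cyclic AMP element core, which 6.47% of promoters have. Tnfrsf1b held 2 GC boxes and Il20rb held 1, and 32.7% of promoters have at least 1. Ptpn22 held none of the motifs. No member held an AP-1 site, a TATA box, an E-box CAGCTG or the NF-kB-like run, which 6.75%, 12.4%, 13% and 14.0% of promoters have. The CpG count was 12 in Tnfrsf1b, 5 in Ptpn22, 5 in Pou2af1, 3 in Cd180 and 1 in Il20rb, against a median of 6. A match to these letters is a description of the sequence.

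Crtam, Il20rb and Ptpn22 were lower in cKO than in WT mRNA at days 27 to 28, by 2.82-fold to 3.17-fold. The authors called 20.3% of the features tested in this comparison and 9.29% as lower, and nothing about the 3 genes is read from those shares because the same calls chose them. Crtam, the adhesion receptor, had 4.34, 4.36, 4.14 and 4.24 log2 CPM in cKO libraries 1 to 4, against 6.13, 5.91, 5.91 and 5.78 log2 CPM in WT libraries 1 to 4. Every cKO library was below every WT library, with a gap of 1.42 between the groups. Crtam averaged 4.27 ± 0.10 log2 CPM in cKO and 5.93 ± 0.14 log2 CPM in WT (SD, n = 4 each), a difference of -1.66 ± 0.09 (SE) or 3.17-fold lower in cKO. About 1113 reads in cKO and 3625 reads in WT, summed over the 4 libraries of each group, stand behind these levels.

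Il20rb, the cytokine receptor chain, had 4.46, 4.23, 4.53 and 4.57 log2 CPM in cKO libraries 1 to 4, against 5.78, 5.85, 6.12 and 6.03 log2 CPM in WT libraries 1 to 4. The groups were again apart, by 1.21. Il20rb averaged 4.44 ± 0.15 log2 CPM in cKO and 5.94 ± 0.15 log2 CPM in WT (SD, n = 4 each), a difference of -1.50 ± 0.10 (SE) or 2.82-fold lower in cKO.

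Ptpn22, the phosphatase, had 4.002, 3.78, 4.03 and 4.12 log2 CPM in cKO libraries 1 to 4, against 5.48, 5.56, 5.85 and 5.63 log2 CPM in WT libraries 1 to 4. The gap between the groups was 1.36. Ptpn22 averaged 3.98 ± 0.15 log2 CPM in cKO and 5.63 ± 0.16 log2 CPM in WT (SD, n = 4 each), a difference of -1.65 ± 0.10 (SE) or 3.14-fold lower in cKO.

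**Figure D1:**
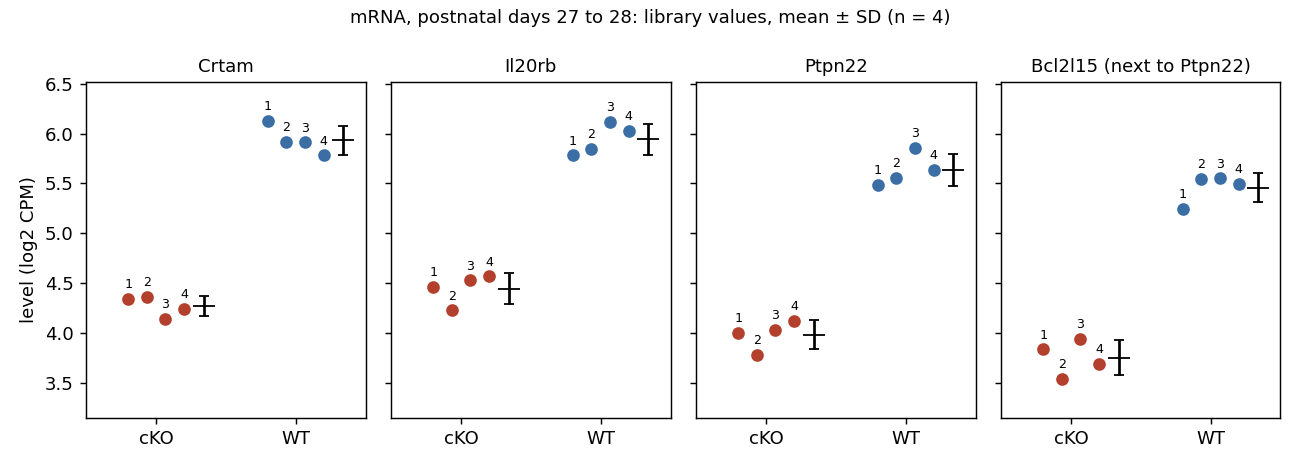
Level in log2 CPM (y axis) of Crtam, Il20rb, Ptpn22 and Bcl2l15, the gene next to Ptpn22, in cKO and WT mRNA libraries (points, numbered by library) with the mean and SD of each group (bars, n = 4). In every panel all cKO libraries lie below all WT libraries.

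By the size of the change, Crtam, Ptpn22 and Il20rb ranked 67, 70 and 82 among the 2518 genes that the authors' deposited table lists as lower. By p-value they ranked 46, 65 and 62 of all 5508 listed genes. Groups that do not overlap were common in this table: they were found for 1829 of the 2518 lower genes, or 72.6%. The SD of the 3 genes within a group was 0.10 to 0.16 log2 CPM, against medians over the listed genes of 0.108 in cKO and 0.116 in WT. Because this is bulk tissue, fewer cells of a type and less RNA per cell cannot be told apart.

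Among the libraries of one genotype, Il20rb and Ptpn22 went together and Crtam did not. Both had the same order of libraries, with cKO 2 lowest and cKO 4 highest in cKO, and WT 1 lowest and WT 3 highest in WT. Crtam was highest in cKO 2 and in WT 1, the libraries in which Il20rb and Ptpn22 were lowest. As a description over the 8 libraries, the Pearson r of the deviations from the genotype means was 0.96 between Ptpn22 and Il20rb, -0.52 between Crtam and Ptpn22 and -0.69 between Crtam and Il20rb. These values share the libraries, their depth and their scaling.

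The genes with the most similar pattern over the 8 libraries were named by the highest r. For Crtam they were Fem1c, Ubtf and Tbc1d25, with r of 0.995, 0.993 and 0.993. Rnf123, Zfp219 and Usp3 came nearest to Ptpn22, with r of 0.998 each, and Rnf123, Usp3 and Fastk nearest to Il20rb, with r of 0.996, 0.995 and 0.995. All these genes were lower in cKO, by less than the members were: -0.36 ± 0.05 (SE, log2) for Fem1c, -1.07 ± 0.06 for Tbc1d25 and -0.50 ± 0.05 for Rnf123. By the deviations within a genotype the nearest genes were Homer3 for Crtam, with r of 0.973, Ndst2 for Ptpn22, with 0.990, and Mphosph9 for Il20rb, also with 0.990. Many listed genes had a high r: 274, 348 and 339 passed 0.95 with Crtam, Ptpn22 and Il20rb.

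The nearest named protein-coding genes on either side of the members were looked up after the values of the members were seen. Of these 12 neighbours in the RefSeq annotation (GRCm38.p6), 3 are listed in the cKO table, and all 3 were lower in cKO. With 20.3% of all features called, so small a count is not a result about the neighbours. Bcl2l15, a member of the Bcl2 family beside Ptpn22 on chromosome 3, had 3.84, 3.54, 3.94 and 3.69 log2 CPM in cKO libraries 1 to 4, against 5.24, 5.55, 5.55 and 5.49 log2 CPM in WT libraries 1 to 4. Its groups did not overlap, and its difference of -1.71 ± 0.11 (SE), or 3.26-fold lower in cKO, was close to that of Ptpn22. The annotated genes do not overlap each other, and whether reads were counted by strand is not given in the sources used here. In the authors' deposited table Nck1, an adaptor beside Il20rb on chromosome 9, changed by -0.33 (log2). Mast4, a kinase beside Cd180 on chromosome 13, changed by -0.26 in cKO and by 0.39 after rotarod in these tables, and it is the 1 neighbour listed after rotarod, where Cd180 was lower. Both genes next to Crtam, Jhy and Ubash3b, are not listed.

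Genes of the members' pathways moved in both directions. Over all 6 pathway lists, 21 of 112 symbols were called higher and 9 lower, or 26.8% against 20.3% of all features tested. The median log2 fold change of the called ones in the authors' deposited table was 0.28, against 0.20 over all listed genes. By list the share called ran from 13.3% to 41.2%. The lists were not matched on abundance to the other genes.

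Of 13 nectin and nectin-like adhesion genes around Crtam, 2 were called higher and 2 lower, or 30.8% against 20.3% of all features. Cadm1, the ligand of Crtam, averaged 6.34 ± 0.09 log2 CPM in cKO and 6.83 ± 0.13 log2 CPM in WT (SD, n = 4 each), a difference of -0.49 ± 0.08 (SE). Pvrl2, a nectin, rose by 0.98 ± 0.07 and Pvrl1, another nectin, by 0.36 ± 0.11, with overlapping groups for Pvrl1. Of 20 genes of the IL-10 family and the JAK and STAT proteins, 3 were called higher and 2 lower, or 25%. Socs3, an inhibitor that cytokine signalling induces, rose by 0.70 ± 0.15 and Jak1 by 0.24 ± 0.04, while Stat5b fell by 0.25 ± 0.06. Il20ra and Il22ra1, the chains with which Il20rb forms receptors, are not listed.

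Of 17 antigen receptor kinases and phosphatases around Ptpn22, 6 were called higher and 1 lower, or 41.2% against 20.3% of all features. Zap70 and Lck, kinases of T and NK cells, rose by 1.17 ± 0.32 and 0.98 ± 0.30 (SE, log2), but on few reads: 77 in cKO and 29 in WT for Zap70, 21 in cKO and 7 in WT for Lck, whose groups overlapped. Pstpip1, an adaptor of the cytoskeleton, rose by 0.77 ± 0.23, on 133 cKO reads and 77 WT reads, with overlapping groups. Csk, the kinase that Ptpn22 binds, is outside the rule for named genes and was looked at after its value was seen. It averaged 5.83 ± 0.11 log2 CPM in cKO and 5.46 ± 0.14 log2 CPM in WT (SD, n = 4 each), a rise of 0.38 ± 0.09 (SE).

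Of 23 genes of endotoxin receptor signalling around Cd180, 4 were called higher and 1 lower, or 21.7% against 20.3% of all features. Tlr4, the endotoxin receptor, averaged 1.75 ± 0.22 log2 CPM in cKO and 0.43 ± 0.22 log2 CPM in WT (SD, n = 4 each), a rise of 1.33 ± 0.14 (SE). Its reads summed to 189 in cKO and 72 in WT. Its adaptor Tirap rose by 0.87 ± 0.12. Lbp, the endotoxin-binding protein, was called lower with -0.63 ± 0.33, and its groups overlapped. Ly86, the partner of Cd180, is not listed.

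Of 24 genes of TNF and NF-kB signalling around Tnfrsf1b, 5 were called higher and 2 lower, or 29.2% against 20.3% of all features. Tnfrsf1a, the first TNF receptor, averaged 4.13 ± 0.20 log2 CPM in cKO and 2.82 ± 0.16 log2 CPM in WT (SD, n = 4 each), a rise of 1.31 ± 0.12 (SE), and its groups did not overlap. Tnfaip3, an inhibitor of NF-kB, fell by 0.69 ± 0.14, and Nfkbie, another inhibitor, rose by 0.34 ± 0.13 with overlapping groups. Of 15 octamer factors and B cell regulators around Pou2af1, 1 was called higher and 1 lower, or 13.3%, below the share of all features. Ebf1, a transcription factor of B cells that neurons also express, rose by 0.34 ± 0.07, and Bcl6, a repressor of transcription, fell by 0.46 ± 0.14 with overlapping groups.

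**Figure D2:**
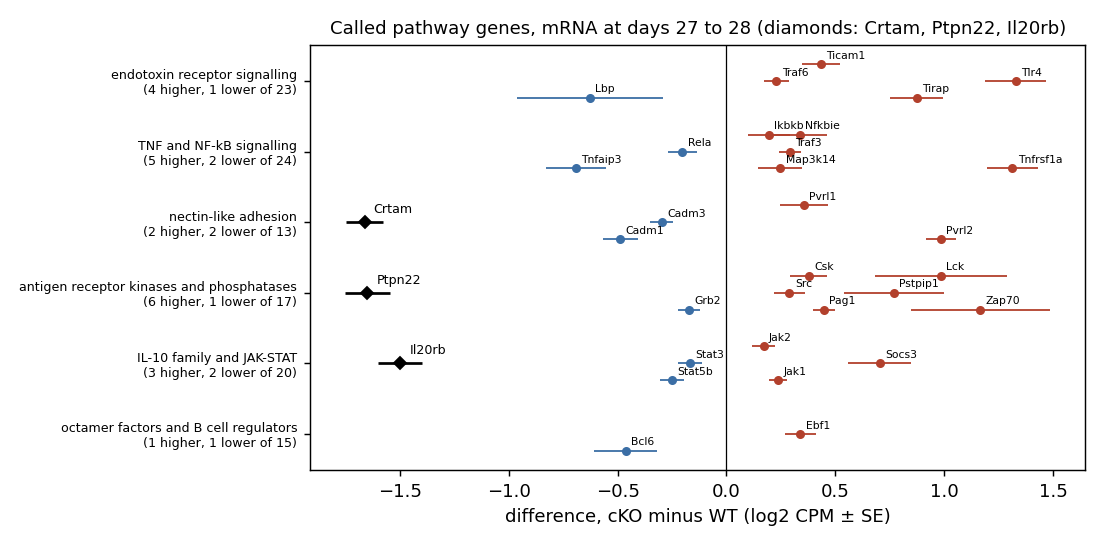
Difference between cKO and WT mRNA in log2 CPM with its SE (x axis) of every called gene of the 6 pathway lists (rows), red where higher and blue where lower in cKO. Black diamonds are Crtam, Ptpn22 and Il20rb, which were chosen by these values and lie left of every called gene of the lists. Among those Tnfaip3 fell by 0.69, the most.

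Of 60 marker symbols of microglia and macrophages, T and NK cells, B cells, and neutrophils and monocytes, 5 were called higher and 2 lower in cKO mRNA, or 11.7% against 20.3% of all features. Among 20 microglia and macrophage markers 2 were called higher and 2 lower, or 20%. Cd163 rose by 1.04 ± 0.23, Ctss rose by 0.41 ± 0.14 with overlapping groups, and Lyve1 fell by 0.64 ± 0.16 (SE, log2). The fourth, Mrc1, is outside the rule for named genes and fell by 0.35 ± 0.09. Among 18 T and NK cell markers Lck, Zap70 and Prf1 were called, all higher, Prf1 with 23 reads in cKO and 8 in WT. None of 12 B cell markers and none of 10 neutrophil and monocyte markers was listed. Ptprc, of the microglia and macrophage list, and Cd3e, of the T and NK cell list, are not listed. The summed level of a list cannot be had from tables of called genes. Of 50 markers of Purkinje cells, interneurons, oligodendrocytes, astrocytes and vascular cells, 33 were called lower and 0 higher, or 66%. Of all features 20.3% were called and 9.29% were called lower. The median log2 fold change of these 33 was -0.30 in the authors' deposited table. Among 14 granule neuron markers 4 were called higher and 4 lower, or 57.1%. The marker lists were not matched on abundance to the other genes. The part of these markers in the fall of Crtam, Il20rb and Ptpn22 was not tested.

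Cd180 was low in whole-cerebellum mRNA and was listed as lower after rotarod training. It had -0.58, -0.65, -0.36 and -0.03 log2 CPM in rotarod libraries 3, 4, 7 and 8, against 0.90, 0.05, 0.60 and 0.64 log2 CPM in rest libraries 1, 2, 5 and 6, numbered as in the deposited columns. These levels were 9, 8, 10 and 14 reads in the rotarod libraries, 41 in all, and 29, 13, 19 and 20 reads in the rest libraries, 81 in all. The groups nearly touched: the highest rotarod library and the lowest rest library were 0.08 log2 CPM apart, with 14 reads and 13 reads. Cd180 averaged -0.41 ± 0.28 log2 CPM after rotarod and 0.55 ± 0.36 log2 CPM at rest (SD, n = 4 each), a difference of -0.95 ± 0.20 (SE) or 1.93-fold lower after rotarod. The authors called 3.38% of features in this comparison and 1.31% as lower, and Cd180 was 711th by p-value of the 908 listed genes. The call ended at an adjusted p under 0.01 and in limma with Benjamini-Hochberg adjustment.

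After rotarod training, 5 of the 112 pathway symbols were called higher and 3 lower, or 7.14% against 3.38% of all features, of which 2.06% were called higher. None of the 23 endotoxin receptor signalling genes was among them. Bcl6, the repressor, rose by 1.12 ± 0.10, Lat, an adaptor of T cell signalling, by 1.05 ± 0.20, Nfkbia, the inhibitor of NF-kB that NF-kB itself induces, by 0.77 ± 0.14, and Pvr, a nectin-like receptor, by 0.61 ± 0.08 (SE, log2). Il10ra, the IL-10 receptor chain known from microglia, fell by 0.88 ± 0.19 and Ptpn18, a phosphatase related to Ptpn22, by 0.63 ± 0.15. None of the 20 microglia and macrophage markers was listed, and of all 60 immune cell marker symbols 1 was, Lat. The other 5 members are not listed in this comparison.

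In ribosome-bound RNA at day 12, Cd180 and Tnfrsf1b were listed as higher and Pou2af1 as lower in the cKO pull-down. The authors called 0.147% of features here, 0.116% as higher and 0.031% as lower, and these 3 genes are among those calls by their choice. Cd180 had 1.40, 3.30 and 4.97 log2 CPM in cKO pull-downs 1 to 3, against -3.10, -2.72 and -3.14 log2 CPM in WT pull-downs 1 to 3. In reads these are 59, 233 and 758 in cKO, 1050 in all, against 1, 2 and 1 in WT, 4 in all. The groups lie far apart, and groups did not overlap for 28 of the 30 genes listed as higher in this comparison. The cKO libraries of Cd180 span 11.8-fold among themselves. Cd180 averaged 3.22 ± 1.78 log2 CPM in the cKO pull-down and -2.99 ± 0.23 log2 CPM in the WT pull-down (SD, n = 3 each), a difference of 6.21 ± 1.02 (SE), which is 74.2-fold on the scale with the prior count. The ratio of summed reads, scaled to library size, was larger: 292, with an exact 95% interval from 114 to 1075 that covers counting error only. Without cKO pull-down 3, which holds 758 of the 1050 reads, the ratio was 123.

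Tnfrsf1b had 2.69, 2.19 and -0.53 log2 CPM in cKO pull-downs 1 to 3, against -3.10, -3.71 and -3.71 log2 CPM in WT pull-downs 1 to 3. These are 147, 107 and 15 reads in cKO, 269 in all, against 1, 0 and 0 in WT. The WT pull-down was thus at or next to its floor, while every cKO library had reads. The difference was 4.96 ± 1.01 (SE, log2, n = 3 each), or 31.1-fold on the scale with the prior count, which pulls values near the floor together. The ratio of summed reads, scaled to library size and resting on 1 WT read, was 299.6 with an interval from 53.3 to 11878, so the size of the change is not fixed by these counts. Without WT pull-down 2 or 3 that ratio was 198 or 197, and without WT pull-down 1 no WT read is left. The adjusted p of Tnfrsf1b in the authors' deposited table (edgeR), 0.0416, was the nearest to the threshold among the members, beside 0.0255 for Cd180 after rotarod.

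Pou2af1 went the other way. It had 0.22, -0.89 and -3.09 log2 CPM in cKO pull-downs 1 to 3, against 4.23, 2.19 and 5.20 log2 CPM in WT pull-downs 1 to 3. These are 25, 11 and 1 reads in cKO, 37 in all, against 470, 120 and 991 in WT, 1581 in all. The groups did not overlap, as for 4 of the 8 genes listed as lower in this comparison. Libraries of one group differed widely, by 9.87-fold in cKO and by 8.04-fold in WT. The difference was -5.12 ± 1.20 (SE, log2, n = 3 each), or 34.8-fold lower in cKO. The ratio of summed reads, scaled to library size, put the WT pull-down 38.4 times higher, with an interval from 27.7 to 54.7 that covers counting error only. Without cKO pull-down 1 the ratio was 80.0, and without WT pull-down 3, which holds 991 of the 1581 reads, it was 21.8.

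**Figure D3:**
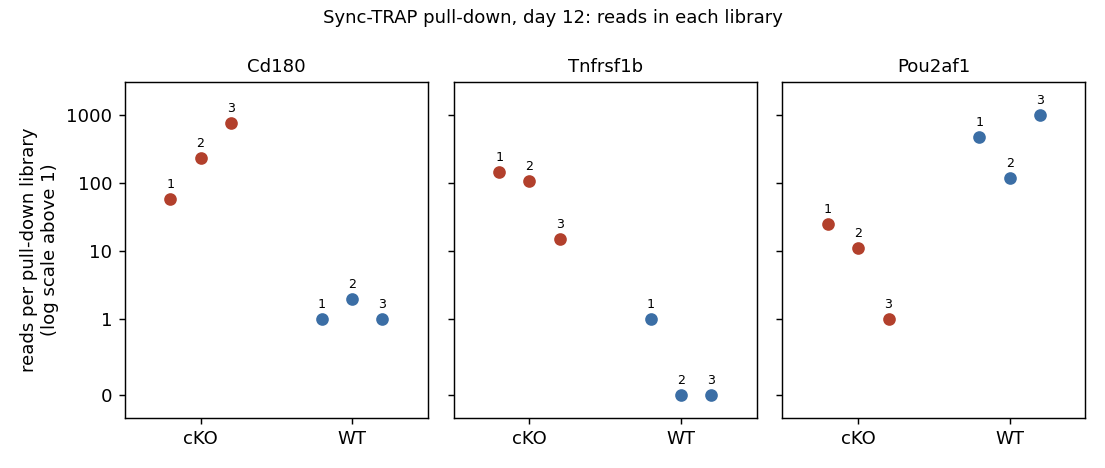
Reads of Cd180, Tnfrsf1b and Pou2af1 in each Sync-TRAP pull-down library of cKO and WT at day 12 (points numbered by library, y axis logarithmic above 1 read). Cd180 and Tnfrsf1b have 0 to 2 reads in each WT library, and Pou2af1 has 1 to 25 in cKO and 120 to 991 in WT.

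The 3 genes did not rise and fall together among the cKO pull-downs: library 3 was highest for Cd180 and lowest for Tnfrsf1b and Pou2af1. A near absence in one group was common among the 38 genes listed in this comparison. Of 30 genes higher in the cKO pull-down, 19 had at most 2 reads in each WT library and 9 had none in any. The SD within the cKO pull-down was 1.68 to 1.78 log2 CPM for the 3 genes, against a median of 1.18 over the listed genes. The RNA was amplified before sequencing, per the labels' protocols. Of 112 pathway symbols 0 were called here by the authors' test, and of 60 immune cell marker symbols also 0, against 0.147% of all features. At so small a share these counts are not a result about the lists. Ly86, Tlr4, Tnfrsf1a, Pou2f1 and Pou2f2 thus have no value beside the members.

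The WT pull-down library 1 stands apart by genes of the Y chromosome, and the labels used here give no sex. Ddx3y, Uty and Kdm5d had 711, 789 and 1382 reads there and 0 to 2 reads in each of the other 5 pull-down libraries, and they make up 3 of the 8 genes listed as lower. Without that library the differences between the cKO and WT pull-downs were 6.16 ± 1.18 for Cd180, 5.16 ± 1.15 for Tnfrsf1b and -4.95 ± 1.42 for Pou2af1 (SE, log2), close to those with it.

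Cd180 is also listed as lower in the WT pull-down than in the WT input, a comparison that uses the same WT pull-down libraries. There the authors called 0.195% of features, 0.0802% as lower. Cd180 had -3.10, -2.72 and -3.14 log2 CPM in WT pull-downs 1 to 3, against 2.78, 1.84 and 1.62 log2 CPM in WT inputs 1 to 3. The groups lie apart by 4.34, and the difference was -5.07 ± 0.39 (SE, log2, n = 3 each). Pull-downs and inputs share title numbers, and this fit does not pair them. With the title number as a block the difference was again -5.07, which a block with the same numbers in both groups cannot change. Its SE was also 0.39. The WT input lay inside the range of the cKO pull-down, 1.40 to 4.97 log2 CPM. The WT pull-down columns of both tables are the same to within 5.0e-06 log2 CPM. Of 6 genes listed in both Sync-TRAP tables, all 6 were higher in the cKO pull-down and lower in the WT pull-down than in its input, and both comparisons share the WT pull-down libraries. Without WT pull-down 1 the difference from the input was -5.01 ± 0.45. Of all 124 marker symbols 1 was called higher in the WT pull-down than in input and 1 lower, or 1.61% against 0.195% of features. The higher one was Slc17a7, 1 of 14 granule neuron markers, by 1.19 ± 0.32 (SE, log2). Hopx, 1 of 10 markers of astrocytes and Bergmann glia, was lower, with -2.23 ± 0.44. The part of these in the level of Cd180 was not tested.

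**Figure D4:**
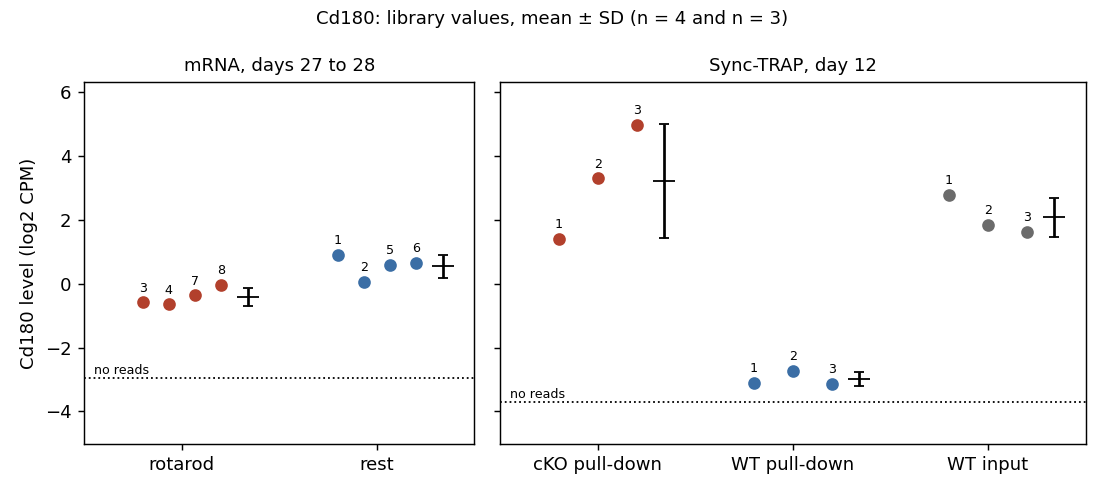
Level of Cd180 in log2 CPM (y axis) in rotarod and rest mRNA (left) and in the Sync-TRAP cKO pull-down, WT pull-down and WT input (right), with the mean and SD of each group (bars, n = 4 on the left and n = 3 on the right). The dotted line is the value of 0 reads, and the WT pull-down libraries lie just above it with 1 to 2 reads each.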

How the data were processed

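The submitters' processing notes name Bowtie, edgeR and build mm9, without versions or a counting tool. Each of the 4 gene tables gives log2 CPM per library with a prior count and the authors' log2 fold change, mean log2 abundance and likelihood ratio (a score), per the file headers. Judged from the authors' deposited p-values, a table holds only genes with an adjusted p under 0.05. The number of features tested, from the ratio of adjusted p to p at each rank, came to about 27100, 26900, 25800 and 26200 in the cKO, rotarod, pull-down and input tables. Lines repeated per Entrez identifier, 49 and 5, were removed from the cKO and rotarod tables. All 6 members matched the reference by identifier.

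From these values limma 3.58.1 (R 4.3.3) gave differences and errors over the listed genes of each table, with no added pseudocount. The planned design foresaw counts of all genes, so no count model was run, and calls are the authors' own. Reads were recovered as the nearest whole multiple of the value of 1 read above the floor of a library. Read ratios have exact 95% intervals (scipy 1.17.1), limited to counting error. The labels give replicates as separate samples only, so errors and p-values measure only the spread between these samples, which may be technical.

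The members and the 16 lists (6 of pathways, 10 of cell type markers) were chosen with earlier results of these data known. Besides the members, Chd4 and the lists' called genes, up to 3 by size of fold change, were to be named, and the genes most like each member. Neighbouring genes, Csk and Mrc1 were added after their values were seen. The lists hold 3 genes under an older and a newer symbol. Region lists on mm9 were not joined to genes, since no annotation of that build was used. Rotarod and rest libraries are known by column number only. Alternatives were another threshold, limma in place of the authors' test, pseudocounts of 0.1 and 1 CPM, and the title number as a block. Fits also left out 1 library or, for Crtam, Ptpn22 and Il20rb, used libraries 1 and 2 or 3 and 4 only.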

Additional observations from a re-analysis of the deposited data

How the results depend on the processing

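The differences of the members kept their direction in all 85 alternatives run on the 8 of them. That outcome was fixed in advance, since the groups of each difference did not overlap and the same values chose the genes. Of the alternatives, 80 moved by less than the spread between replicates. The other 5 were those with 1 CPM added before the log, which gave -0.52 for Cd180 after rotarod, 3.35, 1.99 and -3.44 for Cd180, Tnfrsf1b and Pou2af1 in the cKO pull-down, and -2.31 for Cd180 in the WT pull-down against input. With each library left out in turn, Cd180 ran from 5.34 to 7.12, Tnfrsf1b from 4.34 to 5.95 and Pou2af1 from -5.96 to -4.21 in the cKO pull-down.

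The number of genes called moved more. Of 5508 genes called in cKO mRNA, 1038 had a log2 change of at least 1, 3579 passed limma, and 2848 passed limma with a replicate block. Leaving out a library in limma gave 2657 to 3050. Same-numbered cKO and WT libraries had deviations with a correlation of 0.098, 0.160, 0.131 and 0.085. Differently numbered libraries were not compared, so these values cannot decide whether the numbers pair them. Crtam, Ptpn22 and Il20rb remained lower with the replicate block and with each library left out, as groups that do not overlap must. Of 908 genes called after rotarod, 518 had an adjusted p under 0.01, 167 passed limma, and 54 to 86 passed with a library left out. Cd180 was not among the 518 or the 167, so the count of members was 0 by both, with 1 at an unadjusted limma p under 0.05, as for 896 of the 908 listed genes, which were listed for the same values. Of 38 genes called in the cKO pull-down, 3 had an adjusted p under 0.01. Limma called 0, also 0 with a replicate block and 0 to 0 with a library left out, and 31 had an unadjusted p under 0.05 in limma, on the values that had listed them. Of 51 genes called in the WT pull-down against input, 29 had an adjusted p under 0.01, 3 passed limma, 6 passed with a replicate block, and 0 to 11 with a library left out, with 35 to 46 at an unadjusted p under 0.05. The 11 came without WT pull-down 2. Of 76 pathway and marker symbols called in cKO mRNA, 50 were at or above the median abundance and 47 passed limma. Limma's variance prior came from called genes, and its adjustment ran over the features tested. These alternatives for the Sync-TRAP tables were chosen after seeing the data. So were the read ratios without a library and the numbers of genes called by limma without a library. Depth limits Cd180 after rotarod, with 8 to 29 reads a library, and the groups near 0 reads in the pull-downs.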
